A study of Homo sapiens with 18 samples.

Results

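The chemokines examined here are 8 genes: CXCL1, CXCL2, CXCL3, CXCL8 and CXCL10 of the CXC class, and CCL2, CCL5 and CCL20 of the CC class. They were taken by symbol from the annotation of the array features, and all 8 were measured, by 19 features of the 31332 that carried 1 gene, that is 8 of 18334 genes. CCL2 had 10 features, CXCL2 and CXCL3 had 2 each, and the others had 1. RNA came from K562, an established cell line grown from a human chronic myelogenous leukaemia. Heteronemin, a sesterterpenoid of marine sponges, was given at 6 µM at 0 h, and cells without it received DMSO. TNFalpha, an inflammatory cytokine, followed at 10 ng/mL at 2 h, and cells without it received water, so all cells were collected at 6 h, after 4 h with the cytokine where it was given. There were thus 4 states: untreated, TNFalpha, heteronemin, and both agents together (cotreated).

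Each two-colour Agilent array set 2 of these RNAs against each other and gave 1 log2 ratio per feature, so a value of 1 is a 2-fold difference. The 18 arrays made 3 comparisons: TNFalpha-treated over untreated, heteronemin-treated over untreated, and cotreated over TNFalpha-treated cells. Each comparison had 3 biological replicates of 2 arrays with the dyes exchanged. The 2 arrays were averaged, so n = 3 throughout. Untreated RNA is the control of the first and second comparison, and TNFalpha-treated RNA is the treated side of the first and the control of the third. Whether the same extracts served in both is not stated in the sources used here. Ratios are read as treated over control, after the array titles. A ratio gives no level, so neither the abundance of a chemokine in untreated cells nor the cell line's own markers could be checked, and intensities were not used here. In a culture, fewer expressing cells and less RNA per cell cannot be told apart.

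Chemokines are small secreted proteins that direct the migration of leukocytes through G protein-coupled receptors. The closely related CXCL1, CXCL2 and CXCL3, together with CXCL8 (interleukin 8), attract neutrophils through CXCR2, and CXCL8 also through CXCR1. CXCL10 is an interferon-inducible ligand of CXCR3 on T cells, CCL2 draws monocytes through CCR2, CCL5 attracts T cells and monocytes, and CCL20 acts on CCR6. Many of these genes are textbook targets of TNF: the receptor activates the IKK complex, the inhibitor IkBalpha is degraded, and NF-kB dimers bind kB sites in the promoters. Their transcripts are short-lived, because proteins of the ZFP36 family and the nuclease Regnase-1 bring about their decay.

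Promoter windows from RefSeq (build GRCh38.p14) matched 6 of the 8 genes by symbol, CXCL1, CXCL2, CXCL3, CXCL8, CXCL10 and CCL20. They are shown because the first 4 of them had the highest mean TNFalpha ratios of the 8 genes. The mean log2 ratios of CXCL10 and CCL20 were 0.13 and 0.05. The 200 bases before the start of each gene are printed on the gene's own strand, with matches to the kB consensus or to its 9-base core GGAATTTCC, on either strand, in capitals. The core was chosen after the sequences had been seen. CXCL1 lies at chr4:73869193-73869392 on the plus strand, CXCL2 at chr4:74099196-74099395 on the minus strand, CXCL3 at chr4:74038690-74038889 on the minus strand, CXCL8 at chr4:73740369-73740568 on the plus strand, CXCL10 at chr4:76023498-76023697 on the minus strand and CCL20 at chr2:227813642-227813841 on the plus strand.
CXCL1: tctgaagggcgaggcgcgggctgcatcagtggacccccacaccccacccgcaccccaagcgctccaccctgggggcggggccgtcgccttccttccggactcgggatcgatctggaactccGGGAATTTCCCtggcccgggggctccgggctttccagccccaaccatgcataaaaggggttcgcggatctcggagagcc
CXCL2: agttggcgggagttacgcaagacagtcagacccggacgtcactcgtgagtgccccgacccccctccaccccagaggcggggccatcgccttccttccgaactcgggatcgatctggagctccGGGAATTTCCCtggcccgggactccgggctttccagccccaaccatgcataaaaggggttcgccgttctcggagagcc
CXCL3: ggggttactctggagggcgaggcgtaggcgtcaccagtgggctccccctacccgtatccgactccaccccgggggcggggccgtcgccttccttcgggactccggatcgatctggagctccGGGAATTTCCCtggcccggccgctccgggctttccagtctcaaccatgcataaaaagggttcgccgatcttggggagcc
CXCL8: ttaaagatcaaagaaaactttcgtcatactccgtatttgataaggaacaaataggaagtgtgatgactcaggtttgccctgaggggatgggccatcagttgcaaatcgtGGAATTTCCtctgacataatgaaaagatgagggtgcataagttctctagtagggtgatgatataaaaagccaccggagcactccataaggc
CXCL10: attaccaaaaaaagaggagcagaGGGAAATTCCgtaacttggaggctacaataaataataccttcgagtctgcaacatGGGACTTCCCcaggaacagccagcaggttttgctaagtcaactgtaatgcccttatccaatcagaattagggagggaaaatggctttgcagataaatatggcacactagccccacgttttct
CCL20: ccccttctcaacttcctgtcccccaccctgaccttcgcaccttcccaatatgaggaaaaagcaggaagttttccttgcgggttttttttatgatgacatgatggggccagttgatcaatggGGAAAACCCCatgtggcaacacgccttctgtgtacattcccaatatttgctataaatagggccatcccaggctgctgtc

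The windows of CXCL1, CXCL2 and CXCL3 resemble each other, and all 3 hold the core at almost the same place, with its first base at −78, −77 and −78 from the start. Over the whole 300 bases of the table, identity in a global alignment was 82.47% between CXCL1 and CXCL3, 73.75% between CXCL2 and CXCL3 and 71.86% between CXCL1 and CXCL2. CXCL8 holds the core at −91 and no full match to the consensus. It also holds the AP-1 motif TGANTCA at −137 and TATAAA at −31. CXCL10 has consensus matches at −177 and −122, the first of which overlaps the core on the other strand at −176. CCL20 has 1 consensus match at −79, on the other strand, and TATAAA at −29. In full windows of 300 bases, on either strand, the consensus occurred in 5 of these 6 promoters and in 10.8% of all 27305, and the core in 5 of 6 and in 0.472% of all. The core was chosen from these same sequences, and 3 of its matches lie in the related windows of CXCL1, CXCL2 and CXCL3. Its share is therefore a description and not a test. The consensus share is a description too. Its matches lie in the related windows of CXCL1, CXCL2 and CXCL3 and in CXCL10 and CCL20, not in CXCL8. TGANTCA occurred in 1 of 6 and 7.76% of all, and TATAAA in 2 of 6 and 12% of all. A match describes the letters of a window and does not show that a factor bound there.

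**Figure D1:**
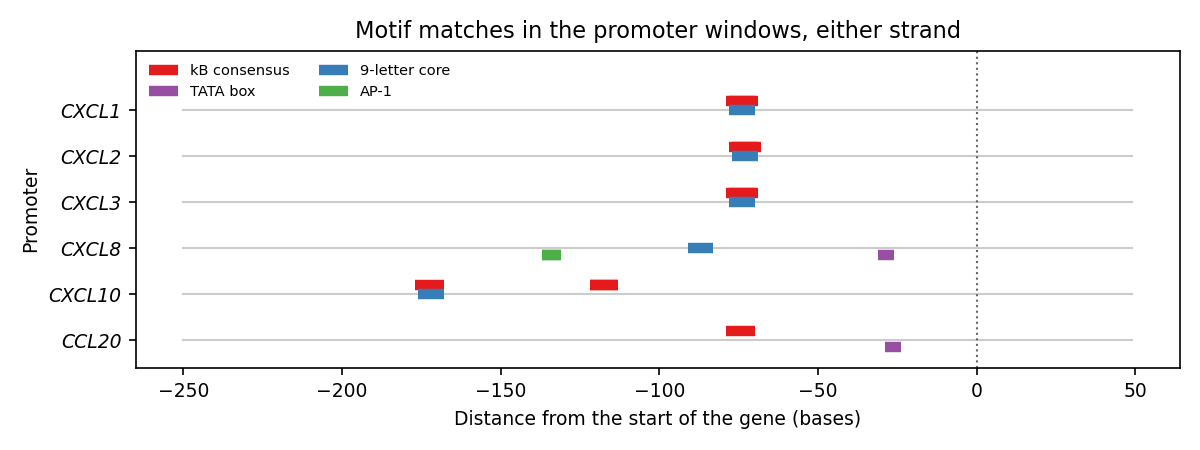
Positions of motif matches in 6 chemokine promoters, as distance in bases from the start of the gene (x axis, dotted line at the start), 1 row per gene; coloured bars are matches on either strand. The core matches of CXCL1, CXCL2 and CXCL3 line up at −78, −77 and −78, and that of CXCL8 lies at −91.

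TNFalpha against untreated cells asks which chemokine transcripts the cytokine alters within 4 h. CXCL1 gave the highest ratio of all 18334 genes in replicate 2 and again in replicate 3. CXCL2, CXCL3 and CXCL8 were at 6.63-fold to 12.1-fold over untreated cells in these replicates, and CCL2 at 2.73-fold and 2.10-fold. In replicate 1 all 5 genes lay between −0.19 and 0.05 on the log2 scale. CCL5 and CCL20 stayed near 0 in all 3 replicates. CXCL10 was near 0 in replicates 1 and 3, and at 0.31 in replicate 2, where it ranked 136 from the top of all 18334 genes.

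CXCL1, also known as GRO-alpha, had log2 ratios of −0.04, 6.38 and 6.49 in replicates 1 to 3. The 2 arrays of replicate 2 gave 6.55 and 6.21, and those of replicate 3 gave 6.65 and 6.33, so both dye orientations showed it. Replicates 2 and 3 correspond to 83.1-fold and 89.8-fold more CXCL1 signal in TNFalpha-treated RNA. On the arrays of replicate 1 the values were −0.11 and 0.03, near 0 on each array and not the mean of opposite large values. The mean was 4.28 ± 3.74 (SD, n = 3), with a 95% interval of 1.88 to 6.67 in limma and an adjusted p of 1.00. This interval uses a spread pooled over the 3 comparisons. The SD of CXCL1 was 0.45 under heteronemin and 0.58 in cotreated over TNFalpha-treated cells. The interval is thus narrower than the 3 TNFalpha replicates alone would give.

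The other neutrophil attractants split in the same way between the replicates. CXCL2 was at 0.05, 3.17 and 2.78. Its 2 features gave 0.14 and −0.03 in replicate 1, 3.80 and 2.54 in replicate 2 and 3.20 and 2.36 in replicate 3. CXCL3 was at −0.19, 2.73 and 2.73. Its 2 features differed more, with 3.73 and 1.74 in replicate 2 and 3.24 and 2.22 in replicate 3, so the size of its change depends on the feature, while both features were high in the same replicates. CXCL8 had the values 0.0042, 3.59 and 2.95, and its arrays gave 3.61 and 3.57 in replicate 2 and 2.82 and 3.08 in replicate 3. Their means were 2.00 ± 1.70 for CXCL2, 1.76 ± 1.69 for CXCL3 and 2.18 ± 1.91 for CXCL8. For each of the 3 genes replicates 2 and 3 lay close together and far from replicate 1.

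Among the CC ligands CCL2, the monocyte attractant MCP-1, was the only one with a log2 ratio above 1 in any replicate. It was at 0.01, 1.45 and 1.07, with a mean of 0.84 ± 0.75. All 10 of its features gave the same picture, between 1.39 and 1.51 in replicate 2 and between 0.97 and 1.16 in replicate 3. CCL5 was at 0.02, 0.13 and 0.07, and CCL20 at 0.12, 0.00 and 0.03. The interferon-inducible CXCL10 was at 0.01, 0.31 and 0.07. For these 3 genes the 95% intervals of the mean were −0.03 to 0.18 for CCL5, −0.11 to 0.21 for CCL20 and −0.02 to 0.28 for CXCL10.

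**Figure D2:**
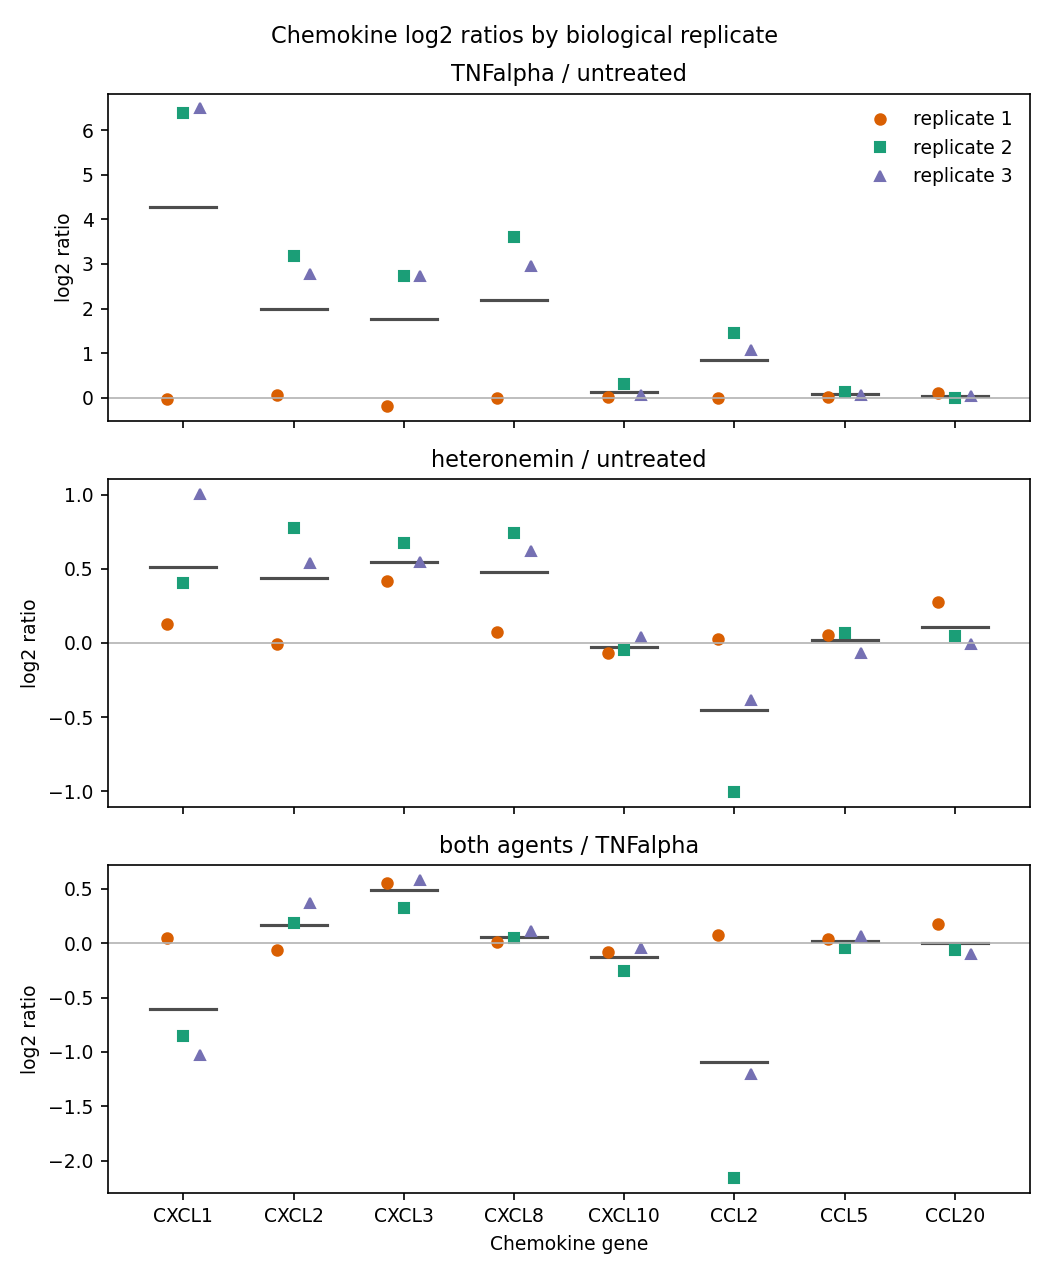
Log2 ratio (y axis) of the 8 chemokine genes (x axis) in each biological replicate (symbols) and their mean (bars), for the 3 comparisons from top to bottom; the y axes differ. Under TNFalpha, CXCL1, CXCL2, CXCL3, CXCL8 and CCL2 lie between 1.07 and 6.49 in replicates 2 and 3 and between −0.19 and 0.05 in replicate 1.

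By the test across all genes (limma, Benjamini-Hochberg adjusted p under 0.05), 0 of the 8 were called, and 0% of all 18334 genes. At an unadjusted limma p under 0.05 there were 4 of the 8, CXCL1, CXCL2, CXCL3 and CXCL8, against 1.72% of all genes. The same 4 had a mean log2 ratio of at least 1, against 0.109% of all genes, which is 20 genes. The median of the 8 genes was 0.0064 in replicate 1, 2.09 in replicate 2 and 1.90 in replicate 3, and that of all genes was 0.0039 or less in size in each. The limma p-values set each mean against a spread pooled over the replicates of all 3 comparisons, not over these replicates alone. For CXCL1, CXCL2, CXCL3 and CXCL8 the SD was largest under TNFalpha, so for them the pooled spread understates that of the TNFalpha replicates.

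Replicate 1 decides this test. With replicate 1 left out of all comparisons, which leaves 2 replicates each, 4 of the 8 were called higher, against 0.338% of all genes. CXCL1 was then at 6.43 (adjusted p = 7.20e-07), CXCL2 at 2.97 (adjusted p = 1.16e-05), CXCL3 at 2.73 (adjusted p = 1.69e-06) and CXCL8 at 3.27 (adjusted p = 3.50e-05). CCL2 was at 1.26 and did not pass (limma adjusted p = 0.129). With replicate 2 or replicate 3 left out of all comparisons instead, 0 of the 8 were called. Leaving out replicate 1 was chosen with these data known, and it removes the replicate in which these genes were flat. The small limma p-values follow in part from that choice. Calls without replicate 1, here and in the comparisons below, are therefore a description and not a test.

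Some other TNF targets had high ratios in replicate 1 too, so its flat chemokine values were not shared by the whole pathway. The genes named here were among the 3 with the smallest limma p of their lists, which favours genes high in every replicate. For 12 measured further TNF targets the median was 0.04, 0.76 and 0.64 in replicates 1 to 3. For 22 measured genes from the TNF receptor to NF-kB it was 0.09, 0.07 and 0.07. NFKBIA, which encodes IkBalpha, was at 2.48, 2.99 and 3.40 in replicates 1 to 3, and BCL3, a nuclear relative of the NF-kB inhibitors, at 1.73, 3.17 and 2.53. TNFAIP3, which encodes the deubiquitinase A20, was at 1.04, 1.49 and 1.03. LTB, the membrane-anchored lymphotoxin subunit, had its highest value in replicate 1, with 3.30, 2.77 and 2.30, and ZC3H12A, which encodes Regnase-1, was even at 0.60, 0.71 and 0.62. IER3, an early survival gene, was at 1.22, 3.60 and 3.40, and CD83, a marker of activated dendritic cells, at 1.42, 3.24 and 2.65, lower in replicate 1 than in the others. IRF1, a transcription factor of the interferon response, was at −0.21, 1.61 and 1.20, the same split as the chemokines. None of these genes was called. No label sets replicate 1 apart, and what lies behind its values was not tested. Over all genes, the 2 arrays of a pair correlated at 0.033, 0.243 and 0.106 in replicates 1 to 3 under TNFalpha. In the other comparisons this correlation was not lowest in replicate 1. The SD over genes of the pair mean was 0.141, 0.134 and 0.135 under TNFalpha. It was largest in replicate 1 under heteronemin (0.329, 0.195 and 0.163) and in cotreated over TNFalpha-treated cells (0.384, 0.215 and 0.172).

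**Figure D3:**
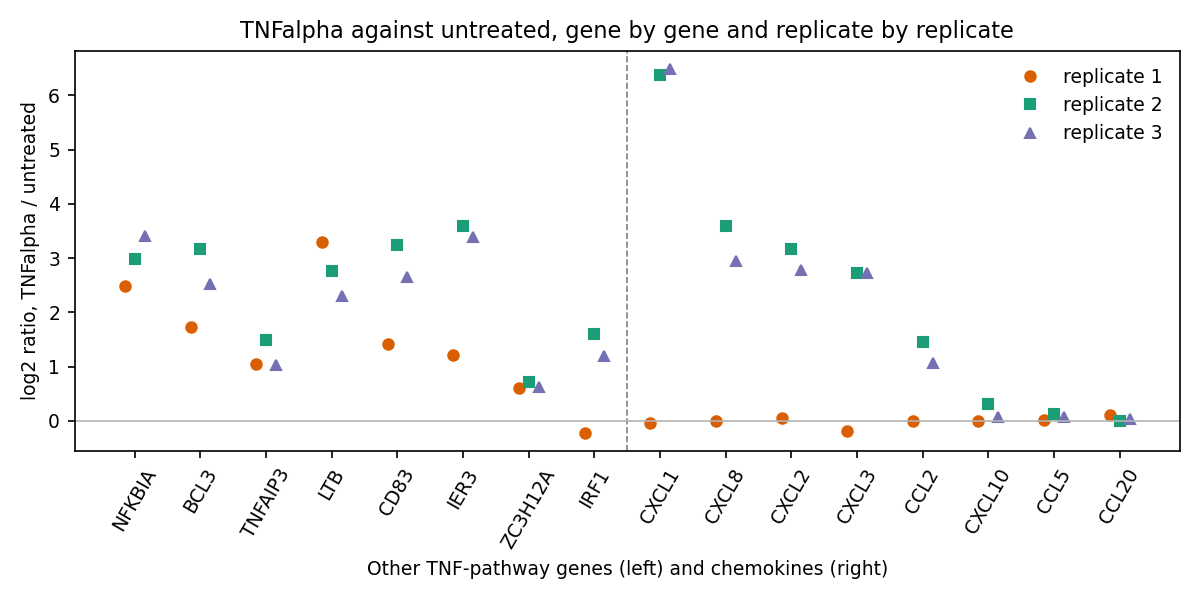
Log2 ratio of TNFalpha-treated over untreated cells (y axis) in each replicate (symbols) for 8 other genes of the TNF pathway (left of the dashed line) and the 8 chemokines (right). The genes on the left were picked by small limma p within their lists. In replicate 1 NFKBIA, BCL3 and LTB lie between 1.73 and 3.30. CD83, IER3, TNFAIP3 and ZC3H12A lie between 0.60 and 1.42, and IRF1 at −0.21. CXCL1, CXCL8, CXCL2, CXCL3 and CCL2 lie between −0.19 and 0.05.

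Both arrays of a pair measured the chemokines alike where the ratios were large. Under TNFalpha the gap between the 2 arrays of a pair, over the 8 genes, was at most 0.587 in replicate 1, 0.341 in replicate 2 and 0.320 in replicate 3. In the other comparisons the largest gaps were also in replicate 1, at 0.798 for CCL20 under heteronemin and 1.41 for CXCL3 in cotreated cells. Differences of the size of these gaps in replicate 1 are thus within the spread of single arrays.

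**Figure D4:**
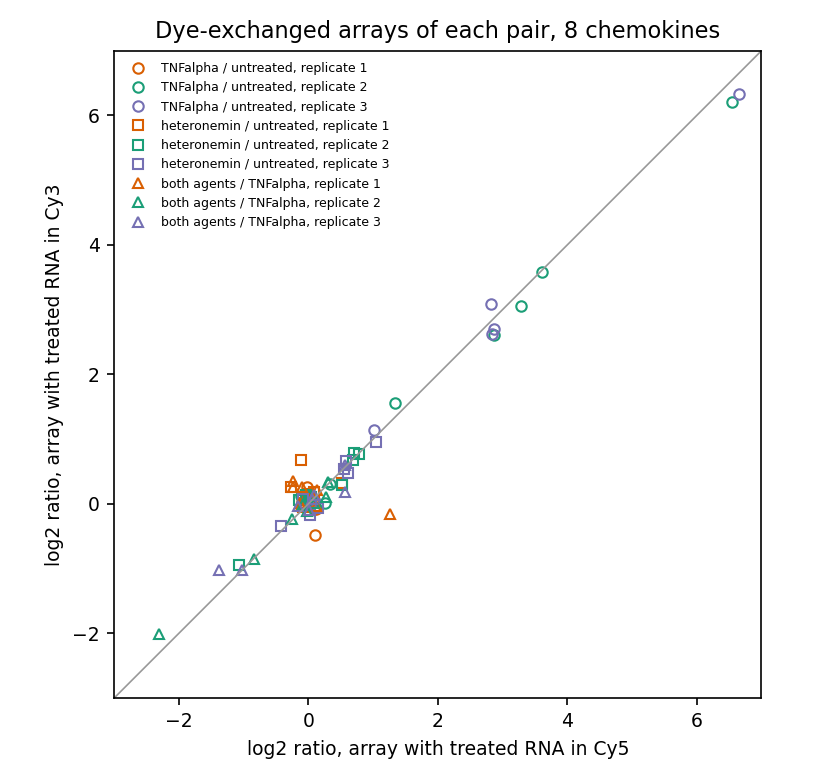
Log2 ratio on the array with the treated RNA in Cy3 (y axis) against that on the dye-exchanged array with the treated RNA in Cy5 (x axis), 1 point per chemokine, comparison (symbol) and replicate (colour); the line marks equality. CXCL1 lies at 6.55 and 6.21 and at 6.65 and 6.33, and the point farthest from the line is CXCL3 in replicate 1 of cotreated cells, with a gap of 1.41.

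Heteronemin against untreated cells shows the compound without the cytokine. Here too the 4 neutrophil attractants were above 0 in replicates 2 and 3, at 1.33-fold to 2.00-fold, and CCL2 was below 0, with 2.01-fold and 1.31-fold less signal. CXCL1 was at 0.13, 0.41 and 1.00, CXCL2 at −0.0049, 0.77 and 0.54 (its features at 0.06 and −0.07 in replicate 1), and CXCL8 at 0.07, 0.74 and 0.62. CXCL3 was the most even of them by its mean of features, with 0.42, 0.68 and 0.55. Its 2 features had opposite signs in replicate 1, however, at −0.35 and 1.18, against 0.93 and 0.42 in replicate 2 and 0.75 and 0.34 in replicate 3.

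CCL2 was at 0.03, −1.01 and −0.38 under heteronemin, with a mean of −0.45 ± 0.52. The direction in replicates 2 and 3 was thus opposite to that of the neutrophil attractants in the same RNA. CXCL10 was at −0.07, −0.05 and 0.04, CCL5 at 0.06, 0.07 and −0.07, and CCL20 at 0.28, 0.05 and −0.01. The value of CCL20 in replicate 1 was the mean of −0.12 and 0.68 on its 2 arrays. None of these 3 genes had the same sign in all replicates.

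None of the 8 was called under heteronemin (adjusted p between 0.491 and 0.885), and 0 had an unadjusted p under 0.05, against calls for 4.87% of all genes. The 95% intervals were wide, from −1.88 to 2.91 for CXCL1 and from −1.37 to 0.46 for CCL2. They use a spread pooled over the 3 comparisons. For CXCL1 the SD was 0.45 under heteronemin and 3.74 under TNFalpha, so this width comes mostly from the TNFalpha comparison. Without replicate 1 in all comparisons 4 of the 8 were called higher, against 13.9% of all genes. They were CXCL1 at 0.70 (adjusted p = 0.00961), CXCL2 at 0.66 (adjusted p = 0.00545), CXCL3 at 0.61 (adjusted p = 0.00153) and CXCL8 at 0.68 (adjusted p = 0.0127). CCL2 was then at −0.69 (adjusted p = 0.0885).

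Cotreated against TNFalpha-treated cells asks what heteronemin does to the chemokine transcripts of cells that also met the cytokine. The 5 genes with high TNFalpha ratios parted here. CCL2 was lower in replicates 2 and 3 by 4.46-fold and 2.30-fold, CXCL1 by 1.80-fold and 2.04-fold, and CXCL8 lay within 0.11 of 0 in every replicate. CXCL3 was above 0 in all 3, and CXCL2 in replicates 2 and 3.

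CCL2 was at 0.08, −2.16 and −1.20, with a mean of −1.09 ± 1.12, a 95% interval of −2.00 to −0.18 and an unadjusted limma p of 0.0239 (adjusted p = 0.157). Both the interval and the p use the spread pooled over the 3 comparisons. The SD of CCL2 was lower in the others, at 0.75 under TNFalpha and 0.52 under heteronemin. The interval is thus narrower than the 3 replicates of this comparison alone would give. It was the second lowest of the 18334 genes in replicate 2 and the 8th lowest in replicate 3. All 10 features lay between −2.24 and −2.10 in replicate 2 and between −1.29 and −1.11 in replicate 3. In replicate 1 its arrays gave −0.10 and 0.25.

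CXCL1 was at 0.05, −0.85 and −1.03, with a mean of −0.61 ± 0.58 (adjusted p = 0.769). Its 2 arrays differed by 0.0025 or less in replicates 2 and 3, and by 0.592 in replicate 1. CXCL8, at 0.01, 0.05 and 0.11, had a mean of 0.06 ± 0.05 with a 95% interval of −1.17 to 1.28. This interval uses a spread pooled over the 3 comparisons, and it also holds the mean of CXCL1. Without replicate 1, which leaves 2 replicates, the interval was −0.22 to 0.37. That setting was chosen with these data known, so it cannot exclude a fall of CXCL8.

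CXCL2 was at −0.07, 0.19 and 0.37, and its 2 features disagreed in sign in replicate 1, with −0.34 and 0.21, and in replicate 2, with 0.44 and −0.06. In replicate 3 they were at 0.68 and 0.07. CXCL3 was at 0.55, 0.32 and 0.58, with features of opposite sign in replicate 1, at −0.49 and 1.59, and of the same sign in the others, at 0.54 and 0.10 and at 0.81 and 0.35. CXCL10 was at −0.08, −0.25 and −0.04, CCL5 at 0.04, −0.04 and 0.07, and CCL20 at 0.17, −0.07 and −0.10. The 3 closely related genes CXCL1, CXCL2 and CXCL3 thus gave different signs in the same RNA in replicates 2 and 3, CXCL1 below 0 and the others above. Whether a feature of 1 of them also binds transcripts of another was not tested, since feature sequences were not used here.

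No chemokine was called in this comparison, against 6.55% of all genes, and CCL2 was the 1 member with an unadjusted p under 0.05. Without replicate 1 in all comparisons 3 of the 8 were called, against 18.5% of all genes: CCL2 fell by 1.68 (adjusted p = 0.00267) and CXCL1 by 0.94 (adjusted p = 0.00242), while CXCL3 rose by 0.45 (adjusted p = 0.00339). CXCL2 was at 0.28 (adjusted p = 0.0922) and CXCL8 at 0.08 (adjusted p = 0.758). The control of this comparison is the treated side of the first one. If the same extracts served in both, the ratios of a gene in them are not independent.

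The effect of heteronemin with TNFalpha minus that without it can be had from comparisons that share no RNA on an array. For CXCL1 this difference was −0.08, −1.26 and −2.03 in replicates 1 to 3, with a mean of −1.12. For CCL2 it was 0.05, −1.15 and −0.82, with a mean of −0.64. CXCL8 was at −0.06, −0.69 and −0.51, and CXCL2 at −0.06, −0.59 and −0.17. The differences of CXCL10, at −0.01, −0.21 and −0.09, and CCL20, at −0.10, −0.11 and −0.09, were smaller. CXCL1, CXCL2, CXCL8, CXCL10 and CCL20 were thus below 0 in all 3 replicates, and CCL2 in replicates 2 and 3. CXCL3, with 0.13, −0.35 and 0.03, and CCL5, with −0.02, −0.11 and 0.14, kept no sign. No member was called, and 0% of all genes, and 0 members had an unadjusted p under 0.05. The replicate numbers pair these 2 comparisons, and with the number as a block 0 members were called as well. Without replicate 1 again none of the 8 was called, against 0.0164% of all genes, and CXCL1 was at −1.64 (adjusted p = 0.0911, 95% interval −2.04 to −1.24).

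No array set cotreated against untreated cells, so this ratio was formed as the sum of the first and the third comparison. The mean of the sum does not need paired replicates. The sums by replicate number do assume that same-numbered TNFalpha-treated RNA is the same in both, which is not stated, and the fit treated the comparisons as independent. By it the neutrophil attractants of cotreated cells in replicates 2 and 3 were at 46.1-fold and 44.1-fold for CXCL1, 10.2-fold and 8.88-fold for CXCL2, 8.31-fold and 9.92-fold for CXCL3, and 12.5-fold and 8.32-fold for CXCL8. With heteronemin present, the 4 CXC genes were thus far above untreated cells in these replicates. CCL2 was at 0.08, −0.71 and −0.13, with a mean of −0.25 and a 95% interval of −1.54 to 1.04. Its mean was 0.06 with scaled arrays and up to 0.28 with 1 replicate left out, so it had no settled direction over untreated cells. None of the 8 was called with 3 replicates (1.25% of all genes), and CXCL1, CXCL2, CXCL3 and CXCL8 were called higher without replicate 1 (7.28% of all genes). CXCL1 was then at 5.49, CXCL2 at 3.25, CXCL3 at 3.18 and CXCL8 at 3.35.

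**Figure D5:**
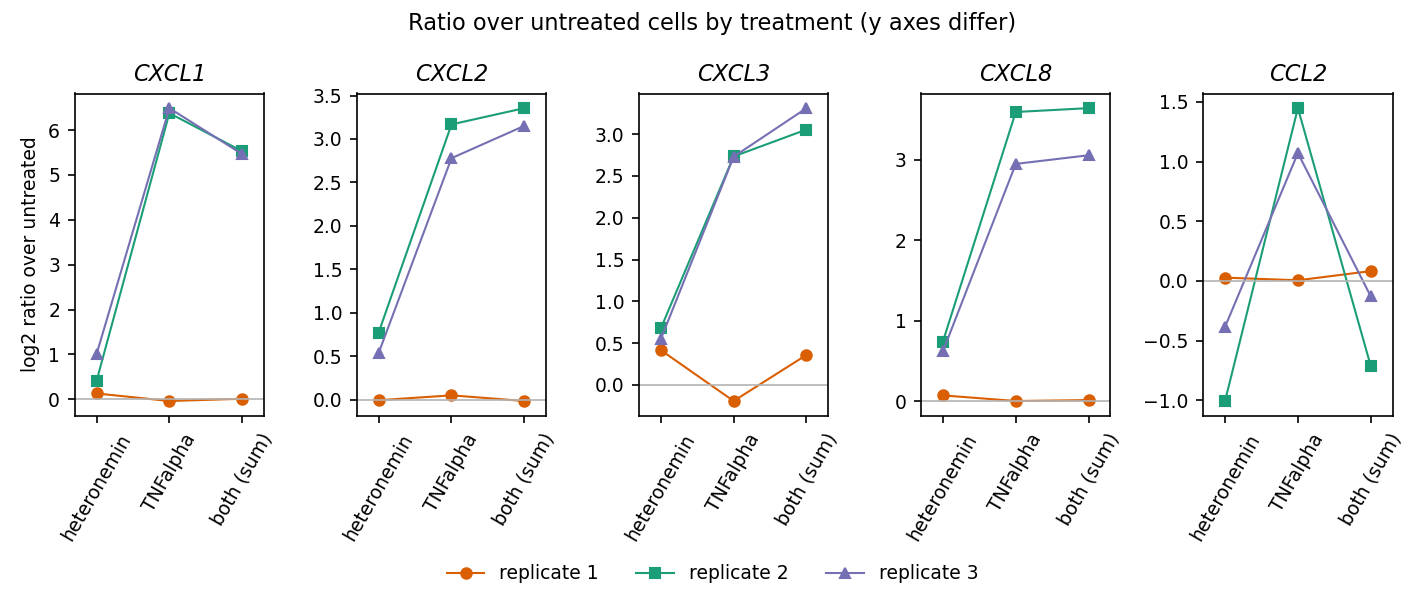
Log2 ratio over untreated cells (y axis, scales differ) under heteronemin, under TNFalpha and, as a sum of comparisons, under both agents, for CXCL1, CXCL2, CXCL3, CXCL8 and CCL2; symbols joined by lines are biological replicates. Replicates 2 and 3 of the 4 CXC genes stay between 3.05 and 5.53 with both agents, CCL2 lies at −0.71 and −0.13, and replicate 1 is near 0 for CXCL1, CXCL2, CXCL8 and CCL2.

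The effect of TNFalpha in the presence of heteronemin was formed in the same way, as cotreated over heteronemin-treated cells. CXCL1 was at −0.12, 5.12 and 4.46, and CCL2 at 0.05, 0.29 and 0.26. In replicates 2 and 3 CCL2 thus had 1.23-fold and 1.19-fold more signal with the cytokine when heteronemin was there, against 2.73-fold and 2.10-fold without it. None of the 8 was called by limma (0% of all genes), and 0 had an unadjusted p under 0.05. Without replicate 1, CXCL1 at 4.79, CXCL2 at 2.60, CXCL3 at 2.57 and CXCL8 at 2.67 were called higher, against 0.0709% of all genes, and CCL2 at 0.27 was not (95% interval −0.63 to 1.18).

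The remaining chemokines of the array did not follow the 5 genes. Of 12 other CXC ligands, all measured, 0 were called in any of the 3 measured comparisons, and none had an unadjusted p under 0.05 or a mean of 1 or more in size. CXCL5, a further CXCR2 ligand, was at −0.05, −0.10 and 0.01 under TNFalpha. Of 28 further CC, XC and CX3C ligands 23 were measured, again with 0 called and 1 unadjusted p under 0.05, in cotreated cells. CCL4, also known as MIP-1beta, was at 0.13, 0.37 and 0.07 under TNFalpha. The median under TNFalpha was −0.0053 for the CXC list and 0.012 for the other list, beside −0.00053 for all genes. Chemokine receptors gave 0 calls among 21 measured of 23, with 2 at an unadjusted p under 0.05 in cotreated cells, and CXCR2 itself was at 0.22, 0.06 and 0.04 in cotreated over TNFalpha-treated cells.

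Other proteins act on chemokine transcripts after they are made. Of 12 genes of chemokine mRNA decay and stability, 2 fell under heteronemin alone: ZFP36L2, a decay factor of AU-rich mRNAs, by 0.86 ± 0.46 (adjusted p = 0.0133), and ELAVL1, the stabilising protein HuR, by 0.41 ± 0.17 (adjusted p = 0.0475). The share of all genes called there was 4.87%. In cotreated cells, where 6.55% of all genes were called, 2 fell as well, ZC3H12A by 0.61 ± 0.33 (adjusted p = 0.0115) and ZFP36L2 by 0.70 ± 0.14 (adjusted p = 0.0241). The list's median was −0.062 and 0.077 in these comparisons, beside 0.0083 and 0.0081 for all genes, and 5 and 7 of the 12 means were above 0. These calls draw on the spread pooled over the comparisons. With heteronemin over untreated or cotreated over TNFalpha-treated cells fitted alone, 0 of all genes passed in either. Whether these changes bear on the chemokine ratios was not tested.

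Of 25 genes from the TNF receptor to NF-kB, 22 were measured and 0 were called in the 3 measured comparisons. Under TNFalpha 9 of the 22 had an unadjusted p under 0.05, against 1.72% of all genes. Of 13 further TNF targets that act with chemokines at sites of inflammation, 12 were measured. One of these was called, in cotreated cells, against 6.55% of all genes there. It was CD83, which fell by 1.44 ± 0.33 (limma adjusted p = 0.0268), and LTB was at −1.45 (adjusted p = 0.0646). LTB was at −0.06, −2.47 and −1.82 in the 3 replicates, with the same near-zero replicate 1 as CCL2.

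Markers of other cell types were examined because monocytes and lymphocytes are strong chemokine sources. Under TNFalpha 0 of 10 monocyte markers, 0 of 9 measured lymphoid markers and 0 of 9 measured erythroid markers were called, and their medians were 0.0053, −0.0050 and 0.0017. In the other comparisons the calls were FCGR3A, higher by 0.20 in cotreated cells, and CD3D, which fell by 0.37 under heteronemin and by 0.41 in cotreated cells. Of 10 measured interferon-response genes ISG15 fell in both, by 0.29 (limma adjusted p = 0.0426) and 0.26 (limma adjusted p = 0.0499). The shares of all genes called were 4.87% under heteronemin and 6.55% in cotreated cells. With each comparison fitted alone 0 of all genes passed in either. These are ratios, so it is not known which of these markers were above background, and their part in the chemokine values was not tested.

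The members' values over the 9 replicates of the 3 comparisons were most alike among the neutrophil attractants. CXCL2 and CXCL8 had the highest Pearson correlation of any pair of members (r = 0.995 over 9 values), and the 6 pairs among CXCL1, CXCL2, CXCL3 and CXCL8 lay between 0.957 and 0.995. CCL2 correlated with them at 0.688 to 0.819. These 9 values share control RNA and include the 2 TNFalpha replicates with the highest ratios, so the coefficients are a description.

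Among the 1466 genes with an SD of at least 0.3 over the 9 values, the gene most like CXCL1 was NFKBIZ, which encodes the nuclear inhibitor-family protein IkBzeta (r = 0.994). NFKBIZ was at 0.08, 2.05 and 1.93 under TNFalpha. The next were CXCL8, the cytokine IL6, the urokinase gene PLAU and the repressor HES1 (r = 0.978 to 0.970). PLAU, at 0.06, 3.60 and 3.14 under TNFalpha, was also among the 5 most like CXCL2 (r = 0.987) and CXCL8 (r = 0.991). IL6, at −0.01, 1.03 and 1.09, was among the 5 most like all 4 of these chemokines. NFKBIZ, PLAU and IL6 were also near 0 in replicate 1 under TNFalpha. They were picked for their likeness to the chemokines over the same 9 values, so this follows from the choice.

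CCL2 had other neighbours. The nearest was IL18RAP, a subunit of the interleukin 18 receptor (r = 0.995), at 0.01, 0.49 and 0.30 under TNFalpha, 0.03, −0.28 and −0.15 under heteronemin, and −0.04, −0.69 and −0.36 in cotreated over TNFalpha-treated cells. CCND1, which encodes cyclin D1 (r = 0.973), the ephrin gene EFNA1 and the transcription factor gene TAL2 (r = 0.949 each), and the prolyl hydroxylase gene EGLN3 (r = 0.925) followed. EFNA1 was at 0.16, 2.21 and 1.60 under TNFalpha and at 0.08, −1.16 and −0.70 in cotreated cells. No chemokine was among the 5 genes most like CCL2.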

How the data were processed

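Each array had 1 deposited log2 ratio per feature. The authors used limma, per the submitters' processing notes; its version and how background was corrected and arrays normalized are not stated in those sources. Array medians lay between −0.0145 and 0.0669, so the ratios had been centred. Whether arrays were scaled to each other is unknown. Ratios were read as treated over control, after the array titles. Large changes had the same sign on both dye-exchanged arrays of a pair, which shows that the arrays of a pair run the same way, not which way. No depth can be given for a ratio, and precision is limited by how many arrays there were.

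Of 45220 features, 13795 without a gene and 93 with several were left out. The other 31332 were averaged to 18334 genes, with no filter on low values, and the 2 arrays of a replicate were averaged. For each gene the 9 values went into a limma fit, version 3.58.1 (R 4.3.3), with 1 mean per comparison, a pooled spread (residual degrees of freedom 6, prior 2.73) and a two-sided Benjamini-Hochberg adjusted p under 0.05. The fit was tested on simulated data. Tables and figures used Python 3.11.15, pandas 2.3.3 and matplotlib 3.10.9, and promoters were aligned with Biopython 1.88. Alternatives were a replicate left out, the replicate number as a block, other feature summaries, 1 dye orientation, other models of the spread, an array-level fit and scaled arrays.

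The members, gene lists, tests and alternatives were chosen with earlier results of these data known. All 8 members are named. Of each other list the 3 genes with the smallest p in a measured comparison and any called gene could be named, and for each member with a mean log2 ratio of at least 1 in size the 5 genes most like it. The series' design text calls the replicates biological. Deviations of same-numbered replicates correlated between heteronemin over untreated and cotreated over TNFalpha-treated cells (r = 0.781, 0.626 and 0.622 in replicates 1 to 3), so the numbers pair these 2 comparisons. With TNFalpha over untreated they were −0.210, 0.0306 and −0.0948 for heteronemin over untreated. For cotreated over TNFalpha-treated cells, where TNFalpha-treated RNA is on the other side of the ratio, they were −0.326, −0.220 and −0.274. None of these was over 0.1, the limit used for pairing, but the negative values leave shared RNA between these comparisons possible.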

Additional observations from a re-analysis of the deposited data

How the results depend on the processing

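With 3 replicates 0 members were called in each of the 6 contrasts, also with the replicate number as a block. The array-level fit, which counts the 2 arrays of a pair apart, called 4 members under TNFalpha, 1 in cotreated over TNFalpha-treated cells and 4 in cotreated over untreated cells, and arrays with the treated RNA in Cy5 alone called 1 in the last. With replicates left out in turn, in 1 comparison or in all, the members called ranged from 0 to 4 under TNFalpha, 0 to 4 under heteronemin, 0 to 3 in cotreated over TNFalpha-treated cells, 0 to 4 in cotreated over untreated and 0 to 4 in cotreated over heteronemin-treated cells, and every call arose where replicate 1 of at least 1 comparison was left out. Of 408 member values under the other alternatives 383 kept their sign and side of the threshold, 10 passed it and 15 changed sign. Of 576 values with a replicate left out 512 kept both, 33 passed it and 31 changed sign.

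The changes of sign concern uncalled values, most of them near 0, and the cause was not tested. With Cy5-labelled treated RNA alone, CCL20 was at −0.050 under TNFalpha, −0.082 under heteronemin, −0.021 in cotreated over TNFalpha-treated, −0.071 over untreated and 0.012 over heteronemin-treated cells. In this setting CXCL8 was at −0.025 in cotreated over TNFalpha-treated cells, CXCL10 at −0.0039 in cotreated over untreated cells, and the difference between heteronemin effects was 0.11 for CXCL3 and 0.062 for CCL20. With Cy3 alone CCL5 was at −0.0053 under TNFalpha, −0.00047 for that difference and −0.0058 in cotreated over heteronemin-treated cells. With scaled arrays CCL5 was at −0.0012 under heteronemin, CCL20 at −0.032 in cotreated over TNFalpha-treated cells and CCL2 at 0.058 in cotreated over untreated cells.

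With a replicate left out, CCL5 ranged from −0.0072 to 0.062 under heteronemin, from −0.0035 to 0.054 in cotreated over TNFalpha-treated cells and from −0.066 to 0.061 for the difference between heteronemin effects, and CXCL3 from −0.16 to 0.084 for that difference. CCL20 ranged from −0.082 to 0.054 in cotreated over TNFalpha-treated, −0.065 to 0.11 over untreated and −0.14 to 0.035 over heteronemin-treated cells. CXCL10 ranged from −0.087 to 0.069 over untreated and −0.063 to 0.093 over heteronemin-treated cells, and CCL2 from −0.84 to 0.28 and from −0.38 to 0.73.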
